A study of Mus musculus with 12 samples.

Results

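The genes described are Ccn4, Hs6st2 and Mdfic, chosen by an earlier analysis of the same arrays because their SKG minus BALB difference departed from their transfer difference. All probe sets annotated to one of these genes alone were taken. They numbered 7 of the 45101 on the array, 2 for Ccn4 (also known as Wisp1), 4 for Hs6st2 and 1 for Mdfic. The choice rested on a test of the interaction between both comparisons over all 12 arrays, so the SKG minus BALB and transfer differences of the members are given as a description, without a test.

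CD4+ T cells of female mice were profiled on whole-genome Affymetrix arrays in a study of Th17 cells, helper T cells that secrete IL-17, with 3 arrays in each of 4 groups. SKG mice carry a mutation of the T cell receptor kinase gene Zap70 on the BALB/c background and develop autoimmune arthritis. SKG lymph node CD4+ cells without FR4, a folate receptor found on regulatory T cells, came from mice aged 40 weeks and carry the label of stimulation with PMA and ionomycin, a phorbol ester and a calcium ionophore. BALB cells were from BALB/c mice of the same age with the same labelled stimulation, but BALB replicate 1 is labelled as CD4+ cells of spleen and lymph node without the FR4 sort. The IFN-γ KO transfer consisted of spleen cells of RAG2-deficient BALB/c hosts, which have no lymphocytes of their own, 7 days after they received CD4+ cells of IFN-γ-deficient BALB/c donors. The IL-6 KO transfer was the same, except that the donors lacked IL-6 and the hosts lacked both IL-6 and RAG2. Transfer samples are labelled with an age of 7 weeks and with no stimulation. Donor and host genotype changed together, and no transfer of unmodified cells was analysed here. The labels do not say whether each replicate is a separate animal, so the spread and p-values below may be technical.

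Ccn4 encodes a secreted matricellular protein of the CCN family that was found as a target of Wnt signalling through β-catenin and that acts on cells through integrins and matrix proteoglycans. Hs6st2 encodes a Golgi sulfotransferase that adds sulfate to the glucosamine units of heparan sulfate, the proteoglycan chains that hold growth factors and chemokines at the cell surface. Mdfic encodes a protein with a MyoD family inhibitor domain, known to bind cyclin T1 of the elongation kinase P-TEFb and, at the membrane, to associate with PIEZO mechanosensitive channels.

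Values are linear intensities as deposited, or log2(intensity + 16) after quantile normalization of the 12 arrays together, and the group differences below are on the second scale, on which changes of dim genes come out too small. The median intensity per array ran from 15.7 to 27.6. The labels were checked on Ifng, which fell by 4.14 on the log2 scale in the IFN-γ KO transfer relative to the IL-6 KO transfer (limma adjusted p = 9.3e-07). Il6 was 5.38 ± 1.26 in the IFN-γ KO transfer and 6.51 ± 1.31 in the IL-6 KO transfer (log2, SD, n = 3 arrays each, limma adjusted p = 1.0), so it does not check that label. All 8 T cell markers with a probe set passed the filter on dim genes. In bulk RNA, fewer cells of a type and less RNA per cell cannot be told apart.

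Of the 3 genes, Ccn4 alone had mean differences of clearly opposite sign in both comparisons. Hs6st2 and Mdfic were higher in SKG than in BALB, and their transfer groups overlapped, so the label of opposed genes holds for Ccn4 and not for the other two. In the order of genes by interaction p the members took places 2, 3 and 6 of 12176 genes tested. An interaction test on these arrays chose them, so these places describe the choice and are not a result. Of all genes tested 8.2% passed the interaction test at an adjusted p under 0.05. Ifng stood at place 1 with an interaction of 4.91, ahead of Ccn4 with 4.01 and Mdfic with 2.57 (log2). Ptger2 and Ccl1 came between Mdfic and Hs6st2, with 2.31 and 5.32, and Gzmb at place 7, with 2.93, followed Hs6st2, with 3.44. Mean differences of opposite sign were seen in 44.5% of all genes tested, and both were at least 1 log2 unit in 0.181%.

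The stretches upstream of Mdfic and Hs6st2 are shown because both genes were higher in SKG than in BALB cells. Both groups carry the same label of treatment with activators that act on AP-1 and NFAT in T cells. Mdfic averaged 11.81 in SKG, and 11.95 and 11.89 in the IFN-γ KO and IL-6 KO transfers (log2), which are labelled with no stimulation. A part of stimulation in these levels was not tested. RefSeq promoter windows (GRCm38.p6, 250 bases before to 50 after a start site) matched 2 of the 3 genes, with 2 start sites for Hs6st2. Each stretch is the part of a window that lies before the annotated gene, 155 bases on the plus strand for Mdfic and 147 bases on the minus strand for Hs6st2. Capitals mark GGAAA, the core letters of NFAT sites, on either strand.
Mdfic, chr6:15720411-15720565: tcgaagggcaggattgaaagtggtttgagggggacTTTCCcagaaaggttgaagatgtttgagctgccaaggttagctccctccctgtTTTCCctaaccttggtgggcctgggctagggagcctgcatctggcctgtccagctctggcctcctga
Hs6st2, chrX:51681706-51681852: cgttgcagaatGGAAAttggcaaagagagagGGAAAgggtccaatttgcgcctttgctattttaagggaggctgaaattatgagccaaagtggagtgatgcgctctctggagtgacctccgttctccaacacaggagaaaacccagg
GGAAA occurs at 2 places in each of these windows, and in 61.3% of all 32851 promoter windows of this length. The AP-1 letters TGANTCA, found in 7.81% of all windows, occur in neither. These letters were chosen with the sequences in view, and a match is a description of the sequence and not of binding.

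Ccn4 read by its brighter probe set, 1448593_at, had deposited intensities of 656.5, 738.6 and 633.6 on the SKG arrays, against 99.6, 92.2 and 104.2 in BALB. The same probe set read 339.6, 350.5 and 325.0 in the IFN-γ KO transfer, against 1281.5, 1136.5 and 579.5 in the IL-6 KO transfer. Every SKG array was above every BALB array, and every IFN-γ KO array was below every IL-6 KO array. That pattern without overlap was present in 0.912% of all genes tested, and the choice of Ccn4 used these values. On the log2 scale Ccn4 was higher in SKG by 2.64 ± 0.22 (SE) and lower in the IFN-γ KO transfer, with a difference of -1.37 ± 0.22. IL-6 KO replicate 3 was the lowest array of its group, and without it the transfer difference was -1.59. Without BALB replicate 1, the sample with no FR4 sort in its label, the SKG minus BALB difference was 2.71.

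The second Ccn4 probe set, 1448594_at, gave the same order of groups. It read 570.4, 681.0 and 492.7 in SKG, against 75.1, 126.2 and 84.4 in BALB. It read 246.8, 274.9 and 237.0 in the IFN-γ KO transfer, against 830.2, 842.5 and 431.4 in the IL-6 KO transfer. Its differences were 2.50 ± 0.27 for SKG minus BALB and -1.30 ± 0.27 for the transfer (log2, SE). Over the 12 arrays, on which both are measured from the same RNA, the probe sets correlated at r = 0.98.

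**Figure D1:**
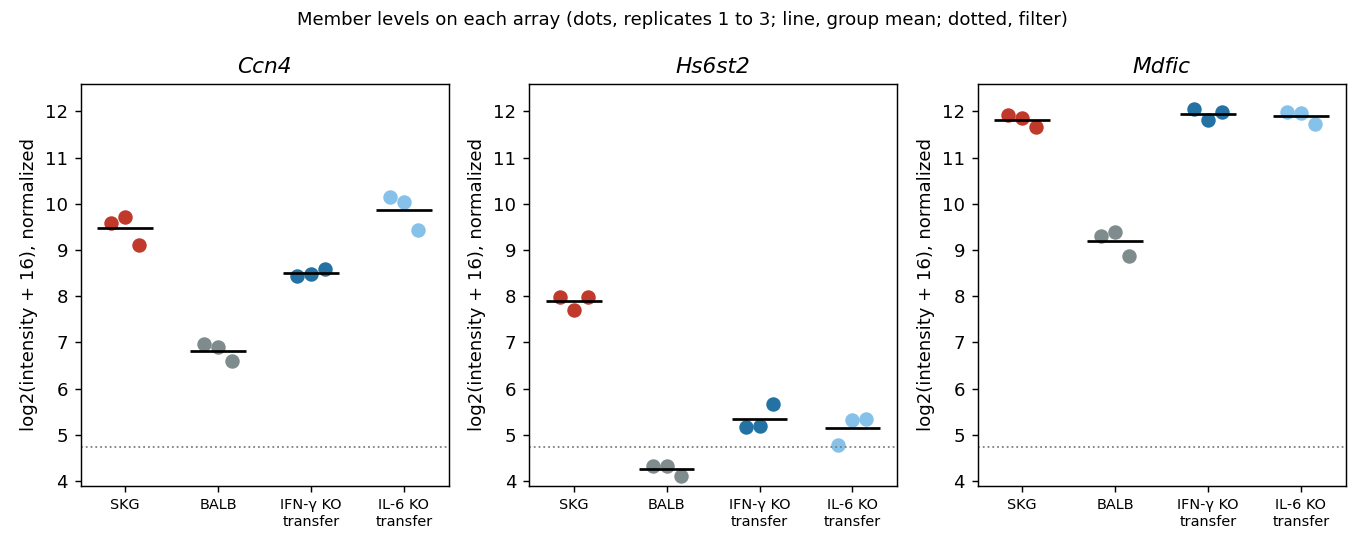
Level of each member on each of the 12 arrays, as log2(intensity + 16) after normalization, for the probe set that stands for the gene. Dots are replicates 1 to 3, lines are group means, and the dotted line is the filter on dim genes at 4.73. Ccn4 is highest in the IL-6 KO transfer and SKG, Hs6st2 in SKG, and Mdfic is low in BALB only.

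Ordered by level, Ccn4 averaged 9.87 ± 0.39 in the IL-6 KO transfer, 9.47 ± 0.31 in SKG, 8.51 ± 0.09 in the IFN-γ KO transfer and 6.82 ± 0.19 in BALB (log2, SD, n = 3 arrays each). The highest pair overlapped, since IL-6 KO replicate 3 at 9.42 lay below SKG replicates 1 and 2 at 9.58 and 9.70. The other neighbours did not overlap. Relative to the authors' intensities, Ccn4 was 6.85 times higher in the SKG mean than in the BALB mean, and the IFN-γ KO mean was 0.339 times that of the IL-6 KO transfer.

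Hs6st2 was read by a single probe set above the filter, 1450047_at. It had intensities of 205.7, 182.1 and 270.7 in SKG, against 3.1, 3.2 and 2.0 in BALB. The IFN-γ KO transfer read 20.3, 23.2 and 33.6, against 11.0, 22.5 and 23.5 in the IL-6 KO transfer. SKG arrays were thus far above the rest, transfer arrays were dim and overlapped, and BALB arrays were dimmest. The BALB values ranked between the 8.61th and 23.7th percentile of all probe sets on their arrays, near the dim end of the array, whereas the SKG values ranked between the 79.7th and 81.7th percentile.

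The SKG minus BALB difference of Hs6st2 was 3.64 ± 0.22 (log2, SE), a value that depends on the added constant, with 5.86 at a constant of 1 and 2.09 at 64. The IFN-γ KO minus IL-6 KO difference was 0.20 ± 0.22, with a 95% confidence interval of -0.27 to 0.66. By level, Hs6st2 averaged 7.89 ± 0.16 in SKG, 5.35 ± 0.28 in the IFN-γ KO transfer, 5.15 ± 0.32 in the IL-6 KO transfer and 4.26 ± 0.13 in BALB (log2, SD, n = 3 arrays each). The transfer groups overlapped in this order, and the other neighbours did not. Without the SKG arrays the mean of this probe set was 4.92, still above the filter of 4.73, through the transfer arrays.

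The other Hs6st2 probe sets did not pass the filter and did not repeat the pattern in full. Probe set 1420938_at was between 9.1 and 11.8 in SKG and between 0.6 and 1.3 in BALB, with a single transfer array above 2.1, IL-6 KO replicate 1 at 10.9. Probe sets 1420939_at and 1446257_at stayed at or below 4.3 and 17.1 on every array, and on both SKG overlapped BALB. The SKG minus BALB result for Hs6st2 therefore rests on 1 probe set, with a dim second one in the same direction.

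Mdfic had 1 probe set, 1427040_at. It read 3359.2, 3175.4 and 3922.9 in SKG, against 593.9, 612.8 and 544.8 in BALB. The IFN-γ KO transfer read 3973.9, 3269.5 and 3822.7, against 4220.6, 4099.8 and 3288.2 in the IL-6 KO transfer. BALB arrays stood apart below the other 9, which overlapped across groups. SKG values above BALB without overlap were found in 24.7% of all genes tested.

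On the log2 scale Mdfic was higher in SKG than in BALB by 2.63 ± 0.15 (SE). The IFN-γ KO minus IL-6 KO difference was 0.06 ± 0.15, with a 95% confidence interval of -0.26 to 0.38. Mdfic averaged 11.95 ± 0.12 in the IFN-γ KO transfer, 11.89 ± 0.14 in the IL-6 KO transfer, 11.81 ± 0.14 in SKG and 9.19 ± 0.27 in BALB (log2, SD, n = 3 arrays each). Of the neighbours in this order, SKG and BALB alone did not overlap.

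**Figure D2:**
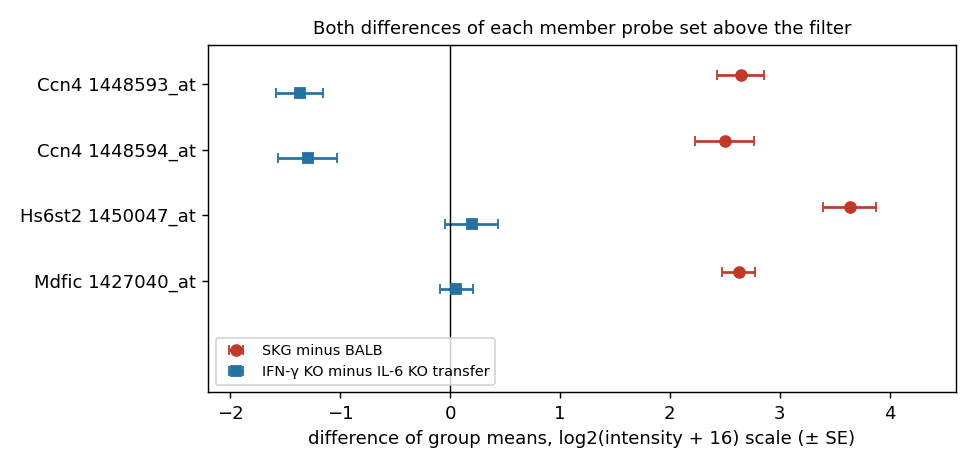
Difference of group means, with its SE from a fit over all probe sets, for the 4 member probe sets above the filter. Circles are SKG minus BALB and squares are IFN-γ KO minus IL-6 KO transfer, on the log2(intensity + 16) scale. Both Ccn4 probe sets lie on opposite sides of 0, while the squares of Hs6st2 and Mdfic lie within 1 SE of 0.

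A contrast that the choice of members did not use sets the mean of SKG and BALB against the mean of both transfer groups. It is orthogonal to the interaction, although it shares the residual spread that helped to choose the members. Mdfic was lower in the SKG and BALB arrays than in the transfer arrays (log2 difference -1.42 ± 0.10, SE, limma adjusted p = 1.9e-06), and so was Ccn4 (-1.04 ± 0.15, limma adjusted p = 0.00022). Hs6st2 was higher by 0.82 ± 0.15 (adjusted p = 0.0011), a call lost with log2(intensity + 1), where the difference was 0.38 (limma adjusted p = 0.37). All 3 members passed, as did 38.5% of all genes tested. For Mdfic the SKG arrays overlapped the transfer arrays and BALB did not, and for Hs6st2 SKG lay above and BALB below them. For Ccn4 SKG, at 9.47, lay above the IFN-γ KO transfer, at 8.51, and overlapped the IL-6 KO transfer. BALB, at 6.82, lay below both transfer groups (log2 means). These means thus join unlike groups. Labelled stimulation, age, tissue, sort and transfer differ together between these pairs of groups and cannot be told apart.

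The genes most like each member in pattern were found by Pearson's r of the log2 values over the 12 arrays, which share group structure and normalization. For Ccn4 they were Ctsw, a cathepsin of cytotoxic lymphocytes (r = 0.952), the chemokine gene Ccl1 (0.949), Tmem29 (0.945), the cytokine gene Csf2 (0.938) and Hax1 (0.933). Ctsw averaged 8.53 in SKG and 6.55 in BALB, and 7.60 in the IFN-γ KO transfer and 8.71 in the IL-6 KO transfer (log2), the same order of groups as Ccn4. For Mdfic they were Trpm6, an ion channel gene (r = 0.995), Gpam, an acyltransferase of lipid synthesis (0.991), Gzmb, which encodes granzyme B (0.991), Nudcd2 (0.990) and Tchp (0.988). For Hs6st2 they were the nucleoporin gene Nup160 (r = 0.965), Oas1a, an interferon-induced oligoadenylate synthetase (0.954), Fndc3a (0.947), Eif4ebp1, a translation repressor (0.945), and Epha3, an ephrin receptor (0.942). Oas1a averaged 9.04 in SKG and 4.52 in BALB, and 5.0 in the IFN-γ KO transfer and 4.48 in the IL-6 KO transfer (log2). Among the members, r was 0.889 between Ccn4 and Mdfic, 0.577 between Ccn4 and Hs6st2 and 0.562 between Hs6st2 and Mdfic.

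Most other genes of the family of Ccn4 were too dim to test. Of the 5 other CCN family genes 1, Ccn1, passed the filter, and its difference was 0.30 ± 0.29 for SKG minus BALB (log2, SE, limma adjusted p = 0.50) and 0.57 for the transfer (limma adjusted p = 1.0). Among Wnt pathway genes, 44 listed and 29 tested, several were lower in SKG: 6 fell and 1 rose by limma, with a median of -0.30 against 0.06 over all genes tested. Of all genes tested 10% fell and 14.1% rose in SKG. With the replicate number as a block 9 Wnt genes fell and 3 rose.

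The Wnt genes that fell in SKG included a transcription factor, receptors and feedback inhibitors. Fzd7, a Wnt receptor, was 4.67 ± 0.49 in SKG and 6.15 ± 0.18 in BALB (log2, SD, n = 3 arrays each), a difference of -1.48 ± 0.33 (SE, limma adjusted p = 0.0060). Its SKG intensities were dim, between 1.3 and 21.4, against 40.4 to 77.9 in BALB, and the call was lost with log2(intensity + 1), where the difference was -2.73 (limma adjusted p = 0.052), while with log2(intensity + 64) it was -0.69. Axin2, a feedback inhibitor that is itself a Wnt target, fell by 1.30 (limma adjusted p = 0.0076) and the receptor gene Fzd5 fell by 1.29 (adjusted p = 0.0014). Lef1, which encodes a nuclear partner of β-catenin, fell by 1.27 (limma adjusted p = 0.0059) and Znrf3, a ligase that removes Wnt receptors, fell by 0.72 (0.028). Rnf43, a ligase related to Znrf3, rose by 0.85 (limma adjusted p = 0.025). Znrf3 lost its call without each SKG and BALB array in turn (adjusted p between 0.053 and 0.094), as Rnf43 did without SKG replicate 1 or 2 or BALB replicate 1 or 2 (between 0.072 and 0.098). Rnf43 also lost it without normalization (limma adjusted p = 0.098), and its difference was 2.04 with log2(intensity + 1) and 0.32 with log2(intensity + 64).

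In the transfer comparison 0 of the 29 tested Wnt genes passed by limma, where 0.246% of all genes tested did. An unadjusted p under 0.05 was found for 2 of the 29, and for 559 of all 12176 genes tested. Wls, which carries Wnt ligands to the cell surface, had the largest transfer difference of the list, at 1.77 (limma adjusted p = 0.086, or 0.0013 in the blocked fit, where it was the 1 Wnt gene that passed). Its SKG minus BALB difference was 0.96 (limma adjusted p = 0.070, or 0.0020 in the blocked fit). The transfer differences of Wls and Ccn4 thus had opposite signs. In the contrast of SKG and BALB against the transfer arrays, 9 Wnt genes were higher and 3 lower by limma, where 13.7% and 24.8% of all genes tested were.

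**Figure D3:**
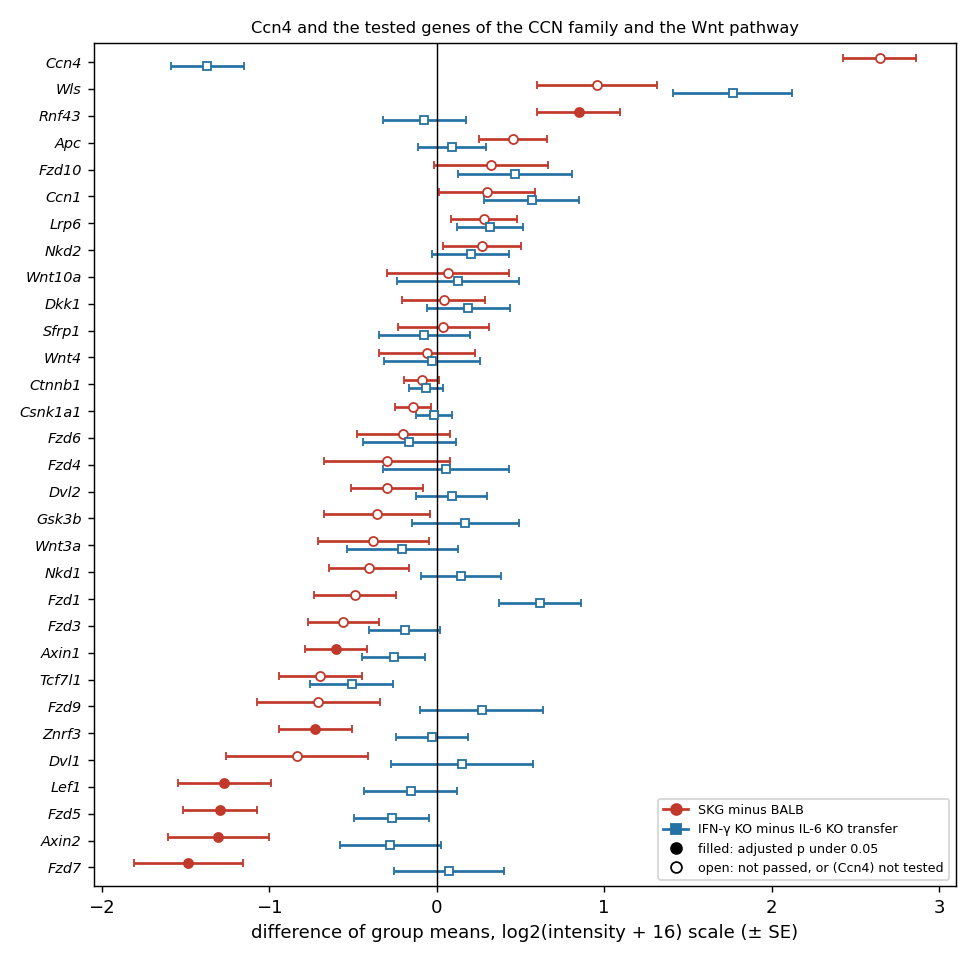
Difference of group means with its SE (log2 scale) for Ccn4 and for the 30 tested genes of the CCN family and Wnt pathway, ordered by SKG minus BALB. Circles are SKG minus BALB, squares are the transfer difference, and filled symbols passed limma at an adjusted p under 0.05, with Ccn4 open because it was not tested. Ccn4 lies at 2.64, while the listed genes that passed lie between -1.48 and 0.85.

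Genes of heparan sulfate synthesis showed a contrast within one enzyme family. Hs6st1, which encodes the sister enzyme of the Hs6st2 product, was 6.26 ± 0.11 in SKG and 7.59 ± 0.09 in BALB (log2, SD, n = 3 arrays each) and fell by 1.33 ± 0.18 (SE, limma adjusted p = 0.00030). In the transfer groups Hs6st1 was 6.28 in the IFN-γ KO and 6.19 in the IL-6 KO transfer. Hs6st3, the remaining gene of the family, did not pass the filter, with group means between 4.09 and 4.19. BALB was thus the group with the highest mean of Hs6st1 and the lowest mean of Hs6st2.

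Of 12 tested genes of heparan sulfate modification 3 fell in SKG and 0 rose by limma, and 4 had an unadjusted p under 0.05. Of all 12176 genes tested 10% fell, 14.1% rose, and 4315 had an unadjusted p under 0.05. The median difference of the 12 genes was -0.19, against 0.06 over all genes tested. The genes that fell were Hs6st1, Glce and Hs3st3b1. Glce, the epimerase that makes iduronic acid, fell by 0.84 (limma adjusted p = 0.011). Hs3st3b1, a sulfotransferase, fell by 1.29 (limma adjusted p = 0.046). Hs3st3b1 lost its call without each SKG and BALB array in turn and without IFN-γ KO replicate 1 (adjusted p between 0.051 and 0.14), and its difference taken as the median over probe sets was -0.67 (adjusted p = 0.11). Papss1, which makes the sulfate donor, had a difference of -0.96 (limma adjusted p = 0.10), Slc35b3, a transporter of that donor, 0.30 (0.19), and Hs2st1, another sulfotransferase, -0.23 (0.29).

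Of 8 tested genes of the linker and chain 1 fell and 0 rose by limma in SKG, and 1 had an unadjusted p under 0.05. Of all 12176 genes tested 10% fell, 14.1% rose, and 4315 had an unadjusted p under 0.05. Ext1, a subunit of the polymerase that extends the chain, fell by 0.98 ± 0.14 (SE, limma adjusted p = 0.00050), while Ext2, the other subunit, had a difference of 0.41 ± 0.49 (0.62). In the fit blocked by replicate number 1 gene of this list rose and 1 fell. The differences of Extl1, Extl2, Extl3, B4galt7, B3galt6 and B3gat3 lay between -0.48 and 0.56. Of 9 tested core protein genes 0 passed by limma, where 24.1% of all genes tested did, and 2 had an unadjusted p under 0.05. Sdc1 had a difference of -0.64 (adjusted p = 0.075), Agrn -0.56 (0.088), Sdc4 0.48 (0.21), Gpc1 -0.58 (0.27), Sdc3 -0.34 (0.35) and Gpc6 -0.35 (0.36). In the transfer comparison 0 genes of these 3 lists passed by limma, and 0 had an unadjusted p under 0.05. Of all 12176 genes tested 0.246% passed there and 559 had an unadjusted p under 0.05. In the blocked fit 1 modification gene fell in the IFN-γ KO transfer, and with array weights 1 fell.

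**Figure D4:**
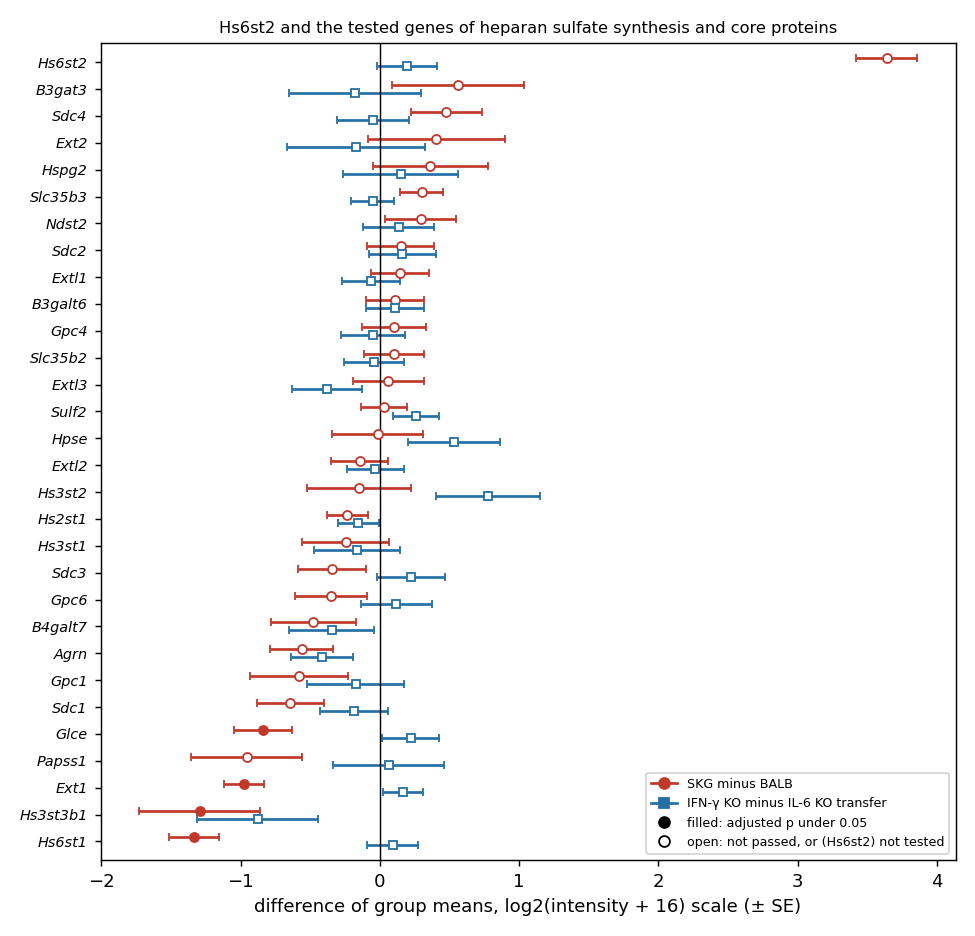
Difference of group means with its SE (log2 scale) for Hs6st2 and for the 29 tested genes of heparan sulfate synthesis and core proteins, ordered by SKG minus BALB. Circles are SKG minus BALB, squares are the transfer difference, and filled symbols passed limma at an adjusted p under 0.05, with Hs6st2 open because it was not tested. Hs6st2 lies at 3.64 and Hs6st1 at -1.33, the ends of the SKG minus BALB range.

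Of the 9 listed genes for the paralog and partners of the MDFIC protein 8 were tested, while Mdfi, the paralog, did not pass the filter, with group means between 4.38 and 4.85. In SKG 2 fell and 0 rose by limma, where 10% and 14.1% of all genes tested did. An unadjusted p under 0.05 was found for 3 of the 8, and for 4315 of all 12176 genes tested. Ccnt1, which encodes cyclin T1, fell by 0.71 ± 0.15 (SE, limma adjusted p = 0.0052), and Cdk9, its kinase, fell by 0.35 (0.040). Cdk9 lost its call under 13 of 24 other settings, among them leaving out any SKG or BALB array except SKG replicate 2 (adjusted p between 0.071 and 0.15). The P-TEFb inhibitor gene Hexim1 had a difference of -0.92 (limma adjusted p = 0.11), Hexim2 -0.09 (0.84), Larp7 0.25 (0.36) and Ccnt2 -0.38 (0.22). The channel genes Piezo1 and Piezo2 had differences of -0.14 (limma adjusted p = 0.45) and -0.45 (0.21). In the fit blocked by replicate number 4 of the 8 fell. None of the 8 passed by limma in the transfer comparison, and 0 had an unadjusted p under 0.05, as 559 of all 12176 genes tested had.

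Markers of other cells moved with some of these comparisons. Summed over 7 B cell markers with a probe set, intensities were 3477 to 5613 in SKG and 641 to 3135 in BALB, and 2 of the 4 tested rose, while Cd79a, Cd79b and Pax5 did not pass the filter. The 5 plasma cell markers summed to 4956 to 6945 in SKG and 2507 to 4360 in BALB, with 2 of 4 tested higher. The 2 CD8 markers summed to 25.3 to 143 in SKG and 217 to 286 in BALB, with 1 higher and 1 lower. T cell markers also moved in this comparison, where limma called 2 of the 8 up and 1 down. Among all genes tested, 14.1% rose and 10% fell, so such calls were not particular to markers of other cells. What part the markers had in the SKG minus BALB values of the members was not tested. The 7 stromal markers, which matter for the matrix gene Ccn4, summed to 55.9 to 109 in SKG and 40.7 to 144 in BALB, and to 69.6 to 94.9 in the IFN-γ KO and 44.6 to 90.9 in the IL-6 KO transfer. Of them Col1a1, Col3a1, Dcn, Pdgfra and Lum did not pass the filter. Neutrophil markers summed to 64.5 to 354 in the IFN-γ KO and 45.2 to 1278 in the IL-6 KO transfer. Their part in the transfer difference of Ccn4 was not tested.

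In the contrast of SKG and BALB with the transfer arrays, 4 of 8 T cell markers were lower and 0 higher by limma. Of all genes tested 24.8% were lower and 13.7% higher in it. The T cell markers summed to 14166 to 19680 in SKG and 15863 to 20130 in BALB. Their sums were 17824.5 to 21398 in the IFN-γ KO and 17093 to 23386 in the IL-6 KO transfer. Of 4 tested B cell markers 3 were higher by limma, with sums of 626 to 1489 in the IFN-γ KO and 620 to 1259 in the IL-6 KO transfer. Of 3 tested endothelial markers 2 were higher by limma, with sums of 91.5 to 156 in SKG and 154 to 158 in BALB, against 45.4 to 63.3 in the IFN-γ KO and 66.5 to 77.3 in the IL-6 KO transfer. Of 4 neutrophil markers 2 were lower by limma, with sums of 42.9 to 58.8 in SKG and 37.4 to 68.0 in BALB. Of 6 tested macrophage and monocyte markers 1 was lower by limma, as were 1 of 2 dendritic markers and the 1 tested erythroid marker. Of 2 CD8 markers 1 was higher, and of 4 tested plasma cell markers 1 was higher and 1 lower. The part of these markers in the differences of Mdfic, Ccn4 and Hs6st2 in this contrast was not tested.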

How the data were processed

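The deposited values are linear intensities, 1 per probe set and array, from biotin-labelled RNA isolated with RNeasy, per the labels' protocols. Which software and scaling made them is not given in the sources used here, and no detection calls were used. The 64 control probe sets were left out, and log2(intensity + 16) was quantile normalized over the 12 arrays. In the probe annotation 34945 probe sets had 1 gene, 932 had several and 9160 were absent. Symbols were updated by gene ID (GRCm38.p6) for 34741. The brightest probe set stood for each of 18193 genes, and 12176 with a mean at or above the 40th percentile (4.73) were tested. Group means were fitted on all 12 arrays with limma 3.58.1 in R 4.3.3 (eBayes with an intensity trend, two-sided, Benjamini-Hochberg adjusted p under 0.05 over all genes tested). The mean of both differences, planned as a second test, is built from the same differences that chose the members and is not tested. The fits were tested on simulated data. The number of arrays limits the precision.

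Members and lists were chosen with earlier results of these data known. Genes are named by a rule: all members, every tested gene of lists of up to 8, otherwise the 6 of smallest p, the 5 genes most like each member, and the neighbours in the interaction order. Some listed genes are not analysed here. Alternatives were constants of 1 and 64, other or no normalization, other filters, the median of probe sets, all probe sets separately, each comparison on its own 6 arrays, no trend, array weights, a replicate block and leaving out each array. Deviations from group means correlated between same-numbered SKG and BALB arrays (r = 0.131, 0.192, 0.327) and, likewise, IFN-γ KO and IL-6 KO arrays (r = 0.466, 0.450, 0.702). Arrays of different number also correlated, as SKG 1 with BALB 2 (r = 0.161), SKG 2 with BALB 1 (0.163) and IFN-γ KO 1 with IL-6 KO 2 (0.444). Correlations of replicate 3 with replicates 1 and 2 were negative, down to -0.254 in the first comparison and -0.575 in the second. Deviations within a group of 3 sum to 0, which in part makes such values negative. Replicate 3 arrays also correlated across the comparisons, as BALB 3 with IL-6 KO 3 (r = 0.293) and SKG 3 with IFN-γ KO 3 (0.186). The r values thus do not settle whether equal numbers are pairs, and the main fits are unpaired. The fit with the number as a block is an alternative. Its count stands beside each list count of SKG minus BALB or the transfer that it moves by over 1.5 times.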

Additional observations from a re-analysis of the deposited data

Results flagged for a closer look

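The members and the listed pathway genes that passed in SKG minus BALB were looked at here. Genes were flagged where the SKG minus BALB and the IFN-γ KO minus IL-6 KO differences differed from each other. The 3 members were chosen for this, so their flags were fixed in advance and no test is given. Their log2 interactions were 4.01 for Ccn4, 3.44 for Hs6st2 and 2.57 for Mdfic. Of the 13 listed genes that passed in SKG minus BALB, 3 were flagged. For Ext1 the interaction was -1.14 (limma adjusted p = 0.0059), for Glce -1.06 (adjusted p = 0.042) and for Hs6st1 -1.43 (adjusted p = 0.0063). Of all genes tested 8.2% passed in the interaction. The flagged genes were looked at because they passed in SKG minus BALB, a difference that is part of the interaction. The 8.2% is therefore not a matched share. In each of these 3 genes the SKG minus BALB difference was negative and the transfer difference was between 0.09 and 0.22.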

How the results depend on the processing

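The signs of the Ccn4 differences, and of the SKG minus BALB differences of Hs6st2 and Mdfic, were the same under every alternative run. Leaving out each array in turn gave 2.54 to 2.81 for Ccn4, 3.56 to 3.74 for Hs6st2 and 2.46 to 2.72 for Mdfic in SKG minus BALB, and -1.59 to -1.23 for Ccn4 in the transfer. The median of probe sets gave no value for Hs6st2, since it fell under the filter. With log2(intensity + 64) SKG minus BALB was 2.23 for Ccn4 and 2.09 for Hs6st2, and the interactions were 3.49 and 2.01. With log2(intensity + 1) these were 5.86 and 5.52 for Hs6st2, whose level difference was 0.38 (limma adjusted p = 0.37). The level tests of Ccn4 and Mdfic passed under all alternatives (adjusted p up to 0.00115 and 1.6e-05).

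In SKG minus BALB 2930 genes passed, with 1802 without normalization, 4763 with all probe sets separately, 5161 with array weights and 1890 to 3427 leaving out arrays (1890 without SKG replicate 1, 1921 without SKG replicate 2). In the transfer 30 passed, with 14 on its own 6 arrays, 370 with array weights and 9 to 40 leaving out arrays (9 without IFN-γ KO replicate 2, IL-6 KO replicate 1 or IL-6 KO replicate 2, 11 without IFN-γ KO replicate 1, 19 without BALB replicate 1). In the interaction 999 passed, with 438 without normalization, 3684 with array weights and 508 to 1496 leaving out arrays, the lowest without SKG replicate 2. In the level contrast 4683 passed, with 9097 with all probe sets separately and 7132 with array weights. Of 67 pathway genes tested 13 passed in SKG minus BALB, with 26 with array weights and 8 to 16 leaving out arrays (8 without SKG replicate 1 or BALB replicate 2), 0 in the transfer, with 1 with log2(intensity + 64), 2 with array weights and up to 1 leaving out arrays, and 22 in the level contrast, with 37 with array weights. With the replicate block 4969, 125 and 3119 genes passed in SKG minus BALB, the transfer and the interaction, as did 22 and 2 pathway genes in the first and second. Without normalization the share of higher calls in the transfer was 50%, against 70% (21 of 30). Lef1, Axin2, Fzd5, Ext1, Glce, Hs6st1 and Ccnt1 passed in SKG minus BALB under all 24 alternatives. The cause of these shifts was not tested.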
